A study of Mus musculus with 8 samples.

Results

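The Nrf2 pathway was examined through 10 genes, chosen by symbol among the 27179 Entrez genes of the count table. They are the transcription factor Nrf2 (gene Nfe2l2), its inhibitor Keap1, the competing repressor Bach1 and the 7 classic target genes Hmox1, Nqo1, Gclc, Gclm, Txnrd1, Srxn1 and Slc7a11. All 10 were found in the counts. RNA was sequenced from neonatal cardiomyocytes (NCMs) of 8 male C57Bl/6 J mice, each library from the heart of 1 mouse on postnatal day 0. Dams of 4 mice breathed filtered air (FA) and dams of the other 4 breathed diesel exhaust (DE) from embryonic day 0.5 until shortly before birth, with PM2.5 regulated to 300 μg/m3 for 6 h per day on 5 days per week, and all mice were conceived in FA. Hearts were dissociated with an enzyme, and NCMs were the cells that stayed in suspension in culture medium while fibroblasts attached to a plate. The levels are therefore those after this handling. The dam or litter of each mouse is not given in the labels, so libraries of a group may share a litter, and the p-values below measure the spread between these hearts.

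Nrf2 is a transcription factor that is made continuously and destroyed almost as fast. Keap1, a sensor protein with reactive cysteines, holds Nrf2 and hands it to the Cul3 ubiquitin ligase. When oxidants or electrophiles modify Keap1, Nrf2 escapes, enters the nucleus, pairs with a small Maf protein and binds the antioxidant response element in its target genes. Bach1 pairs with the same Maf proteins, occupies the same elements and represses them until heme releases it. Because Nrf2 is controlled mostly as a protein, its activity is commonly read from the mRNA of its targets, and diesel exhaust particles are a well-known source of the oxidants and quinones that act on Keap1. In the heart, these targets supply glutathione, thioredoxin and the breakdown of heme.

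RefSeq promoter windows (assembly GRCm38.p6, 250 bases before to 50 bases after a start site) were available for 8 of the 10 genes in 10 windows, and not for Hmox1 and Gclc. The core of the antioxidant response element, TGACNNNGC on either strand, was present in windows of 4 genes, Nfe2l2, Gclm, Txnrd1 and Srxn1. The same letters were present in 12.4% of all 32851 mouse windows. The core of the amino acid response element, TGATGNAA on either strand, was present only in the window of Slc7a11 among the 8 genes, with a match on each strand, and in 3.97% of all windows. An AP-1 site, TGANTCA, was present only in the window of Srxn1 among the 8, with 2 matches, and in 7.81% of all windows. The stretches with matches before the start site are shown so that the matches can be read, with the matched letters in capitals. Among the 5 targets with a window, those of Slc7a11 and Nqo1 held no match of the antioxidant response element core. Elements outside the window or with other letters were not searched, so these 2 genes may still have one.
Nfe2l2 (chr2:75704875-75704913, minus strand): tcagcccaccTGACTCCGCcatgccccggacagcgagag
Gclm (chr3:122245403-122245451, plus strand): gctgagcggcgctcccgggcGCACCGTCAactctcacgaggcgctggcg
Txnrd1 (chr10:82859094-82859142, plus strand): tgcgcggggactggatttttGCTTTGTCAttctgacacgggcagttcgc
Srxn1 (chr2:152105402-152105505, plus strand): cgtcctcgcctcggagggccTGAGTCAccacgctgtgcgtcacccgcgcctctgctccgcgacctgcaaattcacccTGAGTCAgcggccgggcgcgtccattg
Slc7a11 (chr3:50443633-50443699, minus strand): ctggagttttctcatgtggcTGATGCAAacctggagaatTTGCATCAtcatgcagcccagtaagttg
The antioxidant response element core of Srxn1 lay from base 29 to base 37 after the start site and is not shown. The matches of Slc7a11 began 66 and 47 bases before the start site. These are matches of letters and not measured binding sites. The motifs were chosen after the values of the 10 genes had been seen, so the matches are a description and have no test.

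Libraries held between 17943024 and 39839737 counted fragments. Values are CPM, that is counts scaled to a common library total, with TMM factors that adjust the totals for differences in composition. All 10 genes passed the filter on low counts among the 14966 tested genes. The test of exposure was edgeR's quasi-likelihood test, with p-values adjusted by Benjamini-Hochberg over all tested genes, and the term called is kept for genes that reached 0.05 after adjustment and were at least 25% higher or 20% lower in DE, the same fold either way. DE replicates 3 and 5 carry the number 12 in their sample names and the other 6 libraries the number 11. What this prefix marks is not stated in the sources used here. Cardiomyocyte markers were abundant in every library, with a summed level of 10 markers between 65099 and 69147 CPM in FA and between 56203 and 65107 CPM in DE, with 1 called higher (Myh7) and 2 called lower (Myh6 and Pln). The 8 fibroblast markers summed to between 2008 and 3461 CPM in FA and between 3655 and 6177 CPM in DE, with 2 called higher. The 10 markers of macrophages and other leukocytes summed to between 18.2 and 22.7 CPM in FA and between 23.8 and 35.1 CPM in DE, with 1 called higher. Without Cd68, the most abundant of them, the leukocyte sums overlapped, from 11.6 to 14.8 CPM in FA and from 14.3 to 18.6 CPM in DE. Of the 7 leukocyte markers tested, 6 were higher in DE and Csf1r was lower, and their median log2 fold change was 0.49. Of the erythroid markers, 7 of the 8 were found, summing to between 759.3 and 1881 CPM in FA and between 1209 and 2022 CPM in DE, with 1 called higher. The markers of smooth muscle and pericytes summed to between 1154 and 1804 CPM in FA and between 815.0 and 1248 CPM in DE, those of endothelial cells to between 967.9 and 1283 CPM and between 1048 and 1559 CPM, and those of atrial cells to between 513.6 and 1283 CPM and between 507.8 and 789.9 CPM, with none called in these classes. The part of other cells in the values below was not tested. In bulk RNA, fewer cells of a type and less RNA per cell cannot be told apart.

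One of the 10 genes was called between DE and FA. Slc7a11, which encodes the cystine carrier xCT, rose 1.85-fold in DE NCMs, while Nrf2, Keap1, Bach1 and the other 6 targets were not called. Over all tested genes, 868 were called (5.8%), 3.58% of the tested genes higher in DE and 2.22% lower, so a single called gene among 10 is near this background. Of the 10 genes, 6 were higher and 4 lower in DE, and their median log2 fold change was 0.10, beside a median of 0.00 over all tested genes, of which 50.5% were higher. At an unadjusted p under 0.05, 3 of the 10 genes differed, against 25.6% of all tested genes. Groups did not overlap for 1 of the 10, which was higher in DE, against 14.7% of all tested genes, 7.43% higher in DE and 7.26% lower.

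**Figure D1:**
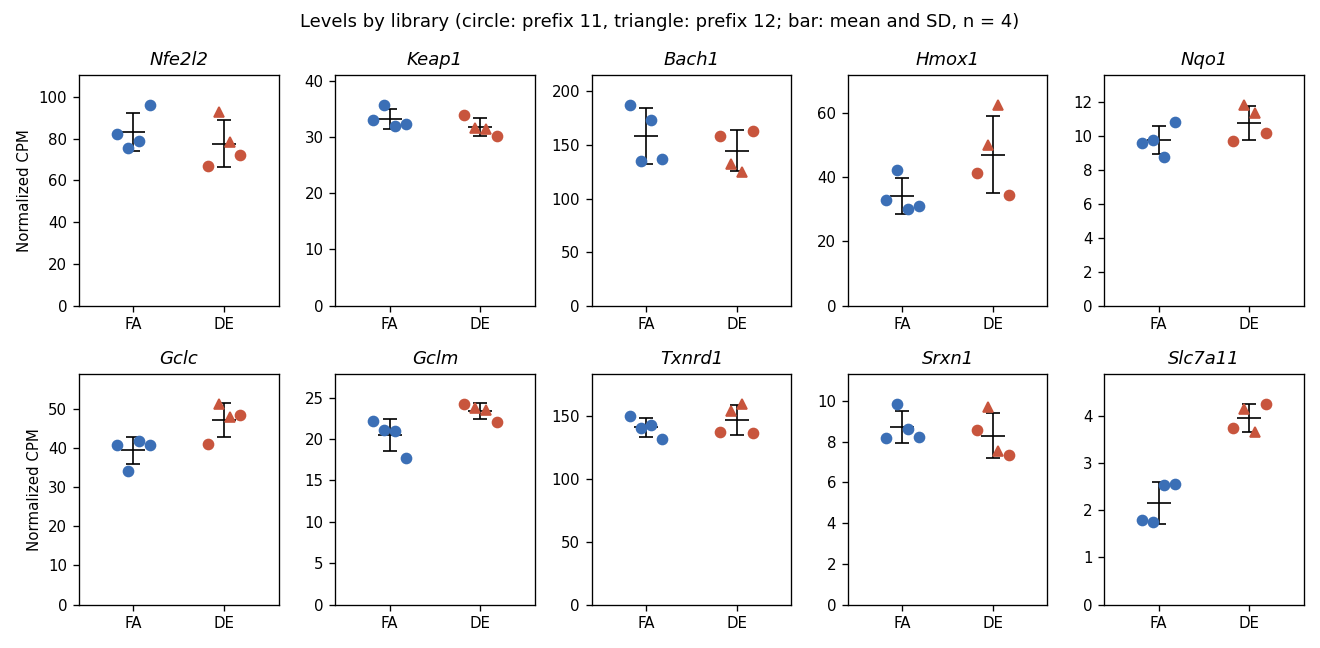
Normalized CPM of the 10 genes in each library, in FA (blue) and DE (red), on linear axes that start at 0, with the mean and SD of 4 libraries in black, circles for libraries with prefix 11 and triangles for prefix 12. Slc7a11 is the gene whose groups do not overlap, with 1.74 to 2.56 CPM in FA and 3.67 to 4.26 CPM in DE, and the highest values of Hmox1, 49.97 and 62.5 CPM, are the triangles.

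Nfe2l2 encodes Nrf2 itself (Entrez gene 18024, chromosome 2 from 75675513 to 75704663, positions here and below being those of GRCm38.p6). FA replicates 2, 3, 4 and 6 held 82.5, 75.6, 79.0 and 96.1 CPM, and DE replicates 1, 3, 5 and 7 held 66.8, 92.9, 78.6 and 72.4 CPM. The groups overlapped, and the highest DE library, DE replicate 3, lay above 3 of the 4 FA libraries. FA averaged 83.3 ± 9.01 CPM and DE 77.7 ± 11.2 CPM (SD over 4 libraries). The log2 fold change was -0.10 with a standard error of 0.12 (edgeR quasi-likelihood, Benjamini-Hochberg adjusted p = 0.631). The 95% interval of the fold ran from 0.775 to 1.12, so a rise of Nfe2l2 mRNA above 1.12-fold lay outside it. Among libraries with prefix 11 alone, the log2 fold change was -0.26 and not called. The genes whose log2 CPM ran closest to Nfe2l2 over the 8 libraries, each centred on its own mean, were Eml1, Nit1 and 1110019D14Rik, with root mean square differences of 0.0629, 0.0691 and 0.0716. The median over all tested genes was 0.284.

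Keap1 encodes the cysteine sensor that holds Nrf2 in the cytoplasm (Entrez gene 50868, chromosome 9 from 21229730 to 21239332). It was the steadiest of the 3 regulators, at 32.97, 35.7, 31.9 and 32.3 CPM in the FA libraries and 33.9, 31.5, 31.4 and 30.2 CPM in the DE libraries, in the same order of replicates. The groups overlapped, with means of 33.2 ± 1.71 CPM under FA and 31.8 ± 1.54 CPM under DE (SD over 4 libraries). The log2 fold change was -0.06 with a standard error of 0.09, with a 95% interval of the fold from 0.835 to 1.10, and it turned to 0.01 with library totals alone. The noncoding gene Gm16754 overlaps 510 bases of Keap1 exons on the opposite strand. The libraries were stranded but the strand setting of the counting is not given in the sources used here, so reads of the 2 genes may have been joined.

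Bach1 encodes the heme-sensing repressor of the same elements (Entrez gene 12013, chromosome 16 from 87698954 to 87733346). FA libraries held 187.4, 134.9, 173.3 and 137.3 CPM and DE libraries 158.6, 132.6, 125.0 and 163.3 CPM. Within each group the libraries split into a higher and a lower pair, FA replicates 2 and 4 against 3 and 6, and DE replicates 1 and 7 against 3 and 5. FA averaged 158.2 ± 26.2 CPM and DE 144.9 ± 18.9 CPM (SD over 4 libraries), or a log2 fold change of -0.13 with a standard error of 0.14. The 95% interval of the fold was from 0.744 to 1.13. With prefix as a term in the model, the log2 fold change turned to 0.02. The log2 ratio of Bach1 to Nfe2l2 CPM was 0.917 ± 0.310 in FA and 0.901 ± 0.364 in DE (SD over 4 libraries), and that of Keap1 to Nfe2l2 was -1.32 ± 0.201 and -1.28 ± 0.239, so both differed between groups by less than the spread within them.

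Hmox1 encodes heme oxygenase-1, which breaks heme into biliverdin, iron and carbon monoxide and is a classic gene under Bach1 repression (Entrez gene 15368, chromosome 8 from 75093618 to 75100593). FA replicates 2, 3, 4 and 6 held 32.9, 42.4, 30.2 and 31.1 CPM, and DE replicates 1, 3, 5 and 7 held 41.2, 49.97, 62.5 and 34.5 CPM. DE replicate 5 was the highest library, FA replicate 3 lay above DE replicates 1 and 7, and the groups overlapped. FA averaged 34.1 ± 5.59 CPM and DE 47.0 ± 12.1 CPM (SD over 4 libraries). The log2 fold change was 0.47 with a standard error of 0.18 (edgeR quasi-likelihood, Benjamini-Hochberg adjusted p = 0.132), with a 95% interval of the fold from 1.06 to 1.81 that is not adjusted for the number of genes. Hmox1 was not called. The difference moved with the prefix, being 0.15 on the log2 scale among libraries with prefix 11 alone, and prefix 12 libraries exceeded prefix 11 libraries by 0.57 in the model with both terms (adjusted p = 0.0999). Without DE replicate 5 it was 0.30. The leukocyte markers, a class that includes the macrophages known for Hmox1, reached their highest sums of 35.1 and 29.5 CPM in DE replicates 3 and 5. Without Cd68 their sums were highest in DE replicates 3 and 1, at 18.6 and 16.6 CPM, with 14.96 CPM in DE replicate 5, and the part of these cells in Hmox1 was not tested.

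Nqo1 encodes the quinone reductase that detoxifies quinones, compounds also found in diesel exhaust, and is the usual marker of Nrf2 activity (Entrez gene 18104, chromosome 8 from 107388225 to 107403205). It was found at 9.63, 9.77, 8.80 and 10.8 CPM in FA and 9.74, 11.8, 11.4 and 10.2 CPM in DE. The DE range overlapped that of FA, with only DE replicates 3 and 5 above the highest FA library. FA averaged 9.75 ± 0.827 CPM and DE 10.8 ± 0.993 CPM (SD over 4 libraries), or a log2 fold change of 0.15 with a standard error of 0.12 (edgeR quasi-likelihood, Benjamini-Hochberg adjusted p = 0.454). The 95% interval of the fold was from 0.926 to 1.32. Among libraries with prefix 11 alone the log2 fold change was 0.02.

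Gclc and Gclm encode the catalytic and the modifier subunit of glutamate-cysteine ligase, the rate-limiting enzyme of glutathione synthesis. Gclc (Entrez gene 14629, chromosome 9 from 77754535 to 77794489) was at 40.9, 34.2, 41.8 and 41.0 CPM in FA and 41.0, 51.4, 48.1 and 48.6 CPM in DE. FA replicate 3 was low, and DE replicate 1 was the DE library that reached into the FA range. The log2 fold change of Gclc was 0.26 with a standard error of 0.11 (edgeR quasi-likelihood, Benjamini-Hochberg adjusted p = 0.152), with a 95% interval of the fold from 1.02 to 1.41. Gclm (Entrez gene 14630, chromosome 3 from 122245487 to 122267215) was at 22.2, 21.1, 21.0 and 17.8 CPM in FA and 24.3, 23.8, 23.5 and 22.1 CPM in DE, so that DE replicate 7 alone overlapped FA, below FA replicate 2. Its log2 fold change was 0.19 with a standard error of 0.10 (edgeR quasi-likelihood, Benjamini-Hochberg adjusted p = 0.262), with a 95% interval of the fold from 0.978 to 1.33. Neither subunit was called. The log2 ratio of Gclm to Gclc CPM was -0.943 ± 0.214 in FA and -1.01 ± 0.174 in DE (SD over 4 libraries), which differed by less than the spread within the groups.

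Txnrd1 and Srxn1 act in the thioredoxin branch, in which thioredoxin reductase 1 keeps thioredoxin reduced and sulfiredoxin repairs overoxidized peroxiredoxins. Txnrd1 (Entrez gene 50493, chromosome 10 from 82833951 to 82897724) held 149.2, 139.8, 142.8 and 131.2 CPM in FA and 136.8, 153.2, 159.4 and 136.4 CPM in DE, with overlapping groups. Its log2 fold change of 0.06 with a standard error of 0.09 (edgeR quasi-likelihood, Benjamini-Hochberg adjusted p = 0.730) had a 95% interval of the fold from 0.903 to 1.2, and it turned to -0.05 among libraries with prefix 11 alone. Srxn1 (Entrez gene 76650, chromosome 2 from 152105524 to 152111376) held 8.18, 9.87, 8.63 and 8.21 CPM in FA and 8.59, 9.72, 7.53 and 7.36 CPM in DE. The DE libraries included the lowest values, but DE replicate 3 was close to the highest FA library. Its log2 fold change of -0.07 with a standard error of 0.13 had a 95% interval of the fold from 0.781 to 1.17, and it turned to 0.01 with library totals alone.

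Slc7a11 encodes the light chain of the xCT exchanger, which brings in cystine for glutathione synthesis in return for glutamate (Entrez gene 26570, chromosome 3 from 50364936 to 50499087). It was the least abundant of the 10 genes. FA replicates 2, 3, 4 and 6 held 67, 35, 45 and 52 fragments, equal to 1.79, 1.74, 2.54 and 2.56 CPM, and DE replicates 1, 3, 5 and 7 held 124, 145, 147 and 80 fragments, equal to 3.75, 4.16, 3.67 and 4.26 CPM. Every DE library lay above every FA library, and the DE libraries of the 2 prefixes interleaved. Slc7a11 rose from 2.16 ± 0.451 CPM under FA to 3.96 ± 0.295 CPM under DE (SD over 4 libraries), or a log2 fold change of 0.89 with a standard error of 0.18 (edgeR quasi-likelihood, Benjamini-Hochberg adjusted p = 0.0193). The 95% interval of the fold ran from 1.41 to 2.42. Its call was lost without FA replicate 2 (adjusted p = 0.0793), FA replicate 3 (0.0515) or DE replicate 3 (0.0627), among prefix 11 libraries alone (0.0701) and with the minimum fold of a call built into the test (0.0974), while its adjusted p ranged from 0.00037 to 0.0974 over 22 alternatives and its log2 fold change from 0.79 to 1.18. The summed levels of the fibroblast markers did not overlap between the groups either and were higher in DE, as were those of the leukocyte markers, which overlapped without Cd68, and the part of these cells in this difference was not tested.

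**Figure D2:**
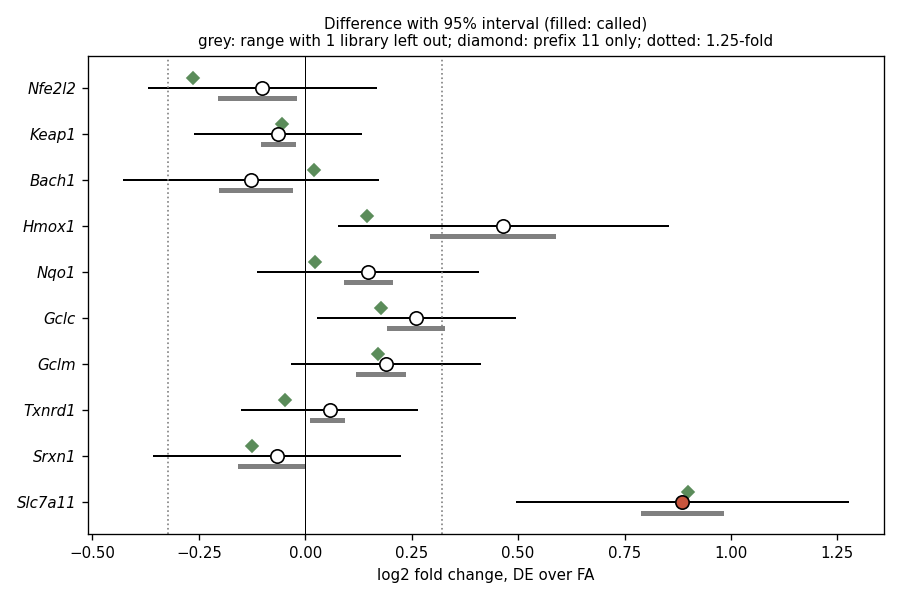
Log2 fold change of DE over FA for the 10 genes (circles, filled where called) with 95% intervals (black lines), the range when 1 library at a time was left out (grey bars) and the value among libraries with prefix 11 alone (green diamonds). Dotted lines mark the minimum fold of a call. Slc7a11 stands at 0.89 with all libraries and 0.90 at its diamond, whereas the diamond of Hmox1 lies at 0.15 against 0.47 for all libraries.

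The 9 genes other than Slc7a11 were called in none of the 22 alternatives, which included DESeq2, edgeR's likelihood ratio test and limma-voom. The lowest adjusted p among them was 0.0650, for Hmox1 without DE replicate 7. For Nfe2l2, Keap1, Bach1, Txnrd1 and Srxn1 the upper end of the 95% interval was 1.2-fold or less, and for Nqo1, Gclc and Gclm it was 1.41-fold or less. For Hmox1 it was higher, with an interval of the fold from 1.06 to 1.81.

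To compare the genes with one another, CPM was divided by the length of each gene's exons in GENCODE. In FA, Txnrd1 (34.5 ± 1.84 CPM per kb), Nfe2l2 (33.7 ± 3.64) and Bach1 (27.0 ± 4.47) were the most abundant, followed by Hmox1 (21.8 ± 3.56), Gclc (11.5 ± 1.03), Keap1 (7.38 ± 0.380), Nqo1 (6.28 ± 0.533), Gclm (3.67 ± 0.343), Srxn1 (3.10 ± 0.280) and Slc7a11 (0.219 ± 0.0458; SD over 4 libraries). Neighbours from Txnrd1 down to Hmox1, and Gclm and Srxn1, overlapped between FA libraries, and the other neighbours did not. Slc7a11 was 14.2-fold below Srxn1 in FA. In DE the order was the same except that Hmox1 (29.98 ± 7.71 CPM per kb) stood above Bach1 (24.7 ± 3.22). Exon lengths join all annotated transcripts of a gene, so these levels are approximate for genes with several start or end sites such as Slc7a11 and Txnrd1.

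**Figure D3:**
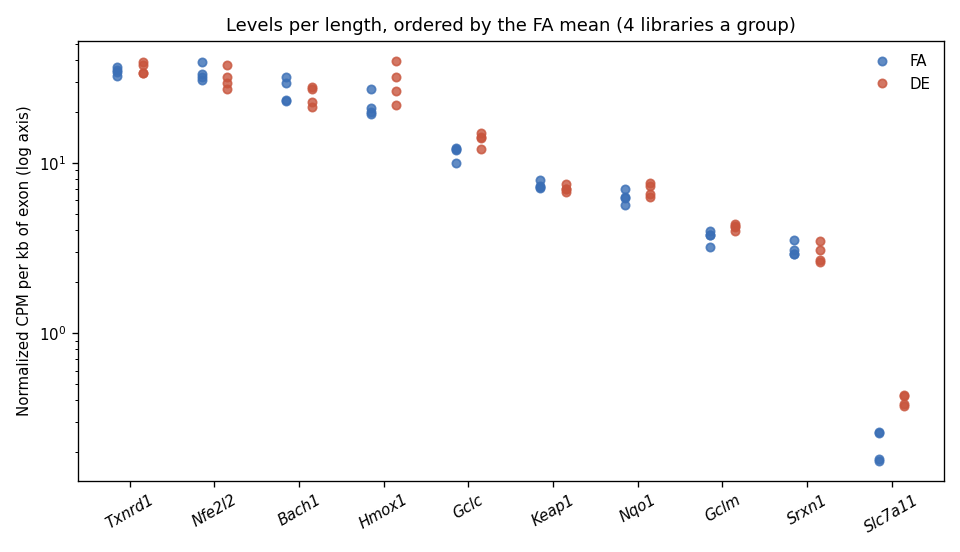
Normalized CPM per kb of exon in each FA (blue) and DE (red) library, on a log axis, with genes ordered by the FA mean. Txnrd1, Nfe2l2, Bach1 and Hmox1 lie between 19.2 and 39.8 CPM per kb, and Slc7a11 lies below 0.5 CPM per kb in every library, with its DE points above its FA points.

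Other regulators of the pathway were examined with a list of 18 genes, all of them tested. Of these, 6 were higher and 12 lower in DE, and their median log2 fold change was -0.09, beside 50.5% higher and a median of 0.00 over all tested genes. The single call among them (5.56%) is no more than the 5.8% called over all tested genes. Nfe2l1, which encodes Nrf1, a relative of Nrf2 that controls proteasome genes, fell from 319.7 ± 15.2 CPM to 253.5 ± 14.4 CPM (SD over 4 libraries), or a log2 fold change of -0.33 with a standard error of 0.09 (edgeR quasi-likelihood, Benjamini-Hochberg adjusted p = 0.0494). FA libraries held 299.3 CPM or more and DE libraries 267.5 CPM or less. The call stood in 8 of 22 alternatives and, of the 8 fits that left out a library, only in that without FA replicate 6, with a log2 fold change between -0.37 and -0.26. Nfe2l3, another relative, had a log2 fold change of -0.67 (edgeR, Benjamini-Hochberg adjusted p = 0.0774) and Ep300, a coactivator, one of -0.48 (adjusted p = 0.178 likewise), both short of a call. With prefix as a term these values were -0.42 for Nfe2l3 and -0.19 for Ep300. Sqstm1, which encodes the p62 protein that competes with Nrf2 for Keap1, was at 389.0 ± 43.1 CPM under FA and 380.6 ± 23.5 CPM under DE (SD over 4 libraries), and the mitochondrial phosphatase and Keap1 partner Pgam5 at 37.0 ± 2.70 and 35.8 ± 3.22 CPM. Cul3, the scaffold of the ligase, and the small Maf genes Mafg, Maff and Mafk were also not called.

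A list of 31 further target genes held 26 that were tested, of which 23 were higher in DE, and their median log2 fold change was 0.24. Over all tested genes, 50.5% were higher and the median was 0.00. With prefix as a term, Gstp1, Cbr1 and Fth1 turned to log2 fold changes of -0.11, -0.11 and -0.04. The other tested targets kept their direction, with Txn1 going from 0.41 to 0.14 and Gstm1 from 0.25 to 0.30. A total of 4 targets were called (15.4%), 3 higher and 1 lower, beside 5.8% of all tested genes, 3.58% higher and 2.22% lower. Tkt, which encodes transketolase of the pentose phosphate pathway, rose from 35.1 ± 4.18 CPM to 61.2 ± 4.80 CPM (SD over 4 libraries), or a log2 fold change of 0.80 with a standard error of 0.11 (edgeR quasi-likelihood, Benjamini-Hochberg adjusted p = 0.003), and was called in all 22 alternatives. Ephx1, microsomal epoxide hydrolase, rose by a log2 fold change of 0.70 and Ugdh, UDP-glucose dehydrogenase, by 0.40. Of the 8 fits that left out a library, the call of Ephx1 stood only without FA replicate 6 or DE replicate 7, and that of Ugdh only without DE replicate 5. Both calls were also lost with prefix as a term (edgeR adjusted p = 0.132 for Ephx1 and 0.0505 for Ugdh), among prefix 11 libraries alone (0.157 and 0.0755) and with the minimum fold of a call built into the test. The log2 fold changes of Ephx1 and Ugdh were 0.65 and 0.45 with prefix as a term, and 0.64 and 0.44 among prefix 11 libraries alone. Me1, the cytosolic malic enzyme that makes NADPH, went the other way and fell from 56.8 ± 6.92 CPM to 35.3 ± 2.23 CPM (SD over 4 libraries), or a log2 fold change of -0.69 with a standard error of 0.11, called in 21 of 22 alternatives. Slc3a2, the heavy chain that joins Slc7a11 in the xCT exchanger, was at 58.7, 72.9, 60.0 and 89.0 CPM in FA and 76.4, 115.7, 116.6 and 82.3 CPM in DE. Its groups overlapped, and its log2 fold change of 0.48 was not called (edgeR, Benjamini-Hochberg adjusted p = 0.117). With prefix as a term it was 0.18, and prefix 12 libraries exceeded prefix 11 libraries by 0.55. Osgin1, which was at 0.29 with that term, had a log2 fold change of 0.58 (edgeR, Benjamini-Hochberg adjusted p = 0.153), Cbr1 one of 0.05 and Fth1 one of 0.06, none of them called. Fth1 has processed copies in the genome, so its counts are uncertain. The 5 targets not tested, Gsta3, Gpx2, Abcc2, Cbr3 and Aldh3a1, held between 6 and 94 fragments each over all 8 libraries and did not pass the filter on low counts.

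The genes that make and handle heme and iron around Hmox1 and Bach1 were examined with a list of 9, of which 4 were higher and 5 lower in DE, and their median log2 fold change was -0.03. Blvrb, Fth1 and Ftl1, all higher in DE, are also in the list of further targets. The 1 called gene (11.1%) stands beside 5.8% over all tested genes. Alas1, the first and rate-limiting enzyme of heme synthesis, fell from 175.5 ± 23.4 CPM to 119.6 ± 18.4 CPM (SD over 4 libraries), or a log2 fold change of -0.55 with a standard error of 0.13 (edgeR quasi-likelihood, Benjamini-Hochberg adjusted p = 0.0356). FA libraries held 150.3 CPM or more and DE libraries 143.3 CPM or less. Its call stood in 12 of 22 alternatives and, of the 8 fits that left out a library, only in that without DE replicate 5, with adjusted p up to 0.0875 in the others. The log2 fold change of Alas1 lay between -0.75 and -0.48 over the alternatives. It was -0.74 and called with prefix as a term (edgeR adjusted p = 0.0157), and -0.75 and called among prefix 11 libraries alone (edgeR adjusted p = 0.0282). Blvra, which turns the biliverdin made by Hmox1 into bilirubin, had a log2 fold change of 0.38 and Slc40a1, the iron exporter ferroportin, one of -0.37, and neither was called (edgeR, Benjamini-Hochberg adjusted p = 0.105 and 0.108). With prefix as a term these values were 0.23 for Blvra and -0.24 for Slc40a1. Hmox2, the constitutive heme oxygenase, was at 32.6 ± 2.95 CPM under FA and 31.9 ± 2.49 CPM under DE (SD over 4 libraries).

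**Figure D4:**
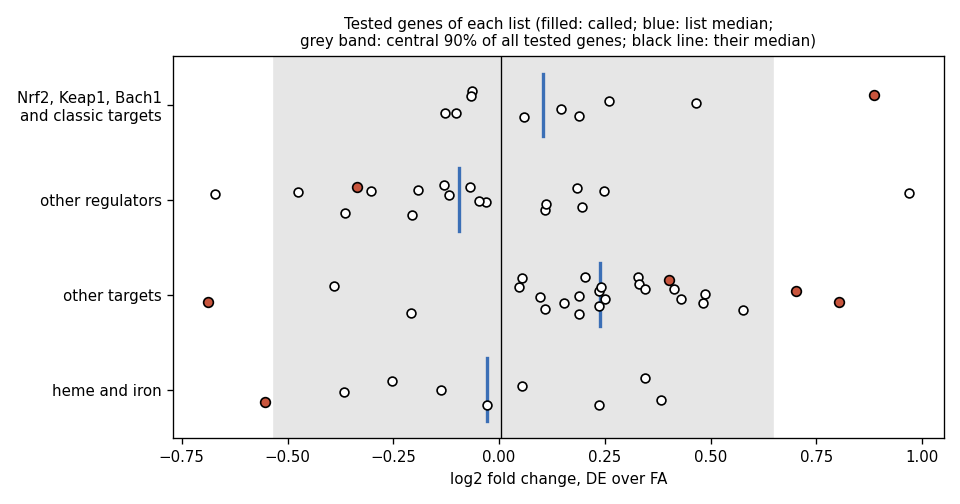
Log2 fold change of DE over FA for the tested genes of each list, filled where called, with list medians in blue and, for all tested genes, the median as a black line and the central 90% as a grey band from -0.53 to 0.65. The 10 pathway genes centre on 0.10 with Slc7a11 to the right of the band. The other targets centre on 0.24 with Me1 to the left of the band and Tkt and Ephx1 to its right.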

How the data were processed

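Poly-A libraries were made with a stranded kit. As the paper's methods state, the authors checked read quality (FASTX-toolkit, FastQC), used Tophat with mm10 and the Ensembl transcriptome, flagged PCR duplicates in Picard but kept them, realigned and recalibrated with GATK, and then ran featureCounts. The deposited table gives raw counts, 1 column per library, for 27179 Entrez genes. Whether counting used the flagged duplicates is not given in the sources used here. Symbols and positions were taken from a RefSeq table of GRCm38.p6 (the assembly of mm10), which matched 25275 genes, and exon lengths from GENCODE M21 (basic set). The paper's methods state fewer libraries per group than the 4 deposited, and all 8 were used.

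From the counts, filterByExpr (minimum count 10) kept 14966 genes, and edgeR 4.0.16 (TMM, glmQLFit, glmQLFTest, exposure as the only term, Benjamini-Hochberg adjustment over all tested genes) in R 4.3.3 compared 4 DE with 4 FA libraries. The common biological coefficient of variation was 15.95%. Intervals at 95% use the standard error and its t quantile and are not adjusted for the number of genes. Alternatives (DESeq2 1.42.0, limma 3.58.1 voom and others) are given at the end, and the code was tested on simulated data, where the main test recovered fewer of the planted changes than the limit first set, which was then lowered. A gene that was not called may therefore still differ. Genes named from other lists are those called and the 2 with the largest and the 2 with the smallest difference in either direction among the rest at 1 CPM or more, besides a few named because they belong to a group described. The genes, lists, motifs and alternatives were chosen with earlier results of these data known.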

Additional observations from a re-analysis of the deposited data

Results flagged for a closer look

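One value stood apart from its group among the 10 genes. Gclc in FA replicate 3 was at 34.2 CPM, and the nearest FA library was at 40.9 CPM, a gap of 0.881 of the range of the FA group, above Dixon's critical value for 4 samples. Of 20 groups examined (10 genes in FA and in DE), chance alone flags about 1. Without FA replicate 3, the log2 fold change of Gclc was 0.20 in place of 0.26, and Gclc was called in neither fit.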

How the results depend on the processing

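No paired analysis was possible because the labels do not match FA libraries with DE libraries. The direction held in every alternative for 6 of the 10 genes. It turned for Keap1 (0.00838) and Srxn1 (0.00786) with library totals alone, for Bach1 with prefix as a term (0.0239) or prefix 11 only (0.0198), and for Txnrd1 under the same settings (-0.0428 and -0.0474, all as log2 fold changes), none of them called. The count of 1 called gene among the 10 was 0 with the minimum fold difference built into edgeR's test and with prefix 11 only, and 0 to 1 when single libraries were left out (0 without FA replicate 2, FA replicate 3 or DE replicate 3), since Slc7a11 lost its call, with 1 to 3 of the 10 at an unadjusted p under 0.05 in these fits. Of the other regulators, 2 were called by DESeq2, by the likelihood ratio test and with offsets for length and GC content, 0 by limma-voom, with the built-in difference, upper quartile factors, library totals, no filter, prefix as a term or prefix 11 only, and 0 to 1 without single libraries, with 2 to 5 at an unadjusted p under 0.05 wherever 0 were called. Of the other targets, 1 was called with the built-in difference, 2 with prefix as a term or prefix 11 only, and 2 to 3 without single libraries, but 6 by DESeq2 and 5 by the likelihood ratio test, with library totals or with the offsets, against 4. Of the heme and iron genes, 0 were called with the built-in difference, upper quartile factors or library totals, and 0 to 1 without single libraries, with 1 to 5 at an unadjusted p under 0.05 wherever 0 were called. The cause of these changes was not tested. Over all genes, 868 calls became 114 with the built-in difference, 1633 with DESeq2, 1603 with the likelihood ratio test, 448 with prefix as a term, 260 with prefix 11 only, 1554 with the offsets and between 237 and 1168 without single libraries. The offsets, and the fit without them on the same genes, were chosen after seeing the data. Of the called genes, 61.8% were higher in DE, against 38.6% with the built-in difference, 78.7% with library totals alone, 49.7% without FA replicate 3 and 51.9% without FA replicate 4. Of the 10 genes, Slc7a11 has the fewest fragments, 35 to 147 a library.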

Other observations

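Besides the motif in the Slc7a11 window, 12 genes known as members of the amino acid response were read from the same fit. The motif and the list were both chosen after the values of Slc7a11 had been seen. The list has no test, its counts are a description that supports nothing, and it includes Slc3a2, described above among the targets. All 12 were tested genes, 10 were higher and 2 lower in DE, their median log2 fold change was 0.48, and 2 were called. Over all tested genes, 50.5% were higher in DE, the median was 0.00 and 5.8% were called. Cth, which makes cysteine from cystathionine, was at 0.725 ± 0.138 CPM under FA and 1.75 ± 0.481 CPM under DE (SD over 4 libraries), or a log2 fold change of 1.28 (edgeR, Benjamini-Hochberg adjusted p = 0.0174). Phgdh, the first enzyme of serine synthesis, was at 9.77 ± 1.73 CPM under FA and 14.7 ± 2.27 CPM under DE (SD over 4 libraries), or a log2 fold change of 0.59 (edgeR, Benjamini-Hochberg adjusted p = 0.0492). The call of Cth stood in 16 of 22 alternatives and was lost without FA replicate 2, FA replicate 4 or DE replicate 3, and that of Phgdh stood in 10 of 22 and in 0 of the 8 fits that left out a library. Both were lost with prefix as a term and among prefix 11 libraries alone (adjusted p = 0.107 for Cth and 0.119 for Phgdh by edgeR). Among prefix 11 libraries alone the log2 fold change was 0.95 for Cth and 0.58 for Phgdh. Asns, asparagine synthetase, had a log2 fold change of 0.53 (edgeR, Benjamini-Hochberg adjusted p = 0.0813), Psat1 one of 0.47 (edgeR, Benjamini-Hochberg adjusted p = 0.0572) and Trib3 one of 1.07 (edgeR, Benjamini-Hochberg adjusted p = 0.0798), and none of these was called by edgeR. The mRNA of Atf4, the transcription factor of this response, was at 215.8 ± 25.8 CPM under FA and 216.3 ± 20.2 CPM under DE (SD over 4 libraries), and Ddit3 and Ddit4, at -0.17 and -0.14 on the log2 scale, were not called.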
